A study of Mus musculus with 12 samples.

Results

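Liver RNA of night-fed mice without functional cryptochromes was compared between the middle of the dark phase, zeitgeber time (ZT) 18, and the middle of the light phase, ZT06. The comparison used 4 of the 12 libraries of a time series, 2 taken at ZT18 and 2 at ZT06. The libraries of each side were taken by their time label, and this pair of times was picked with earlier results of these data known. All 4 came from male C57BL/6j Cry1/2 double-knockout mice aged 12 to 16 weeks, kept with a conventional gut flora, so the gene deletions, the strain, the sex and the night feeding were shared by both sides. The other 8 libraries, 2 at each of ZT02, ZT10, ZT14 and ZT22, served only to estimate the spread between libraries. Wild-type mice were not analysed here, so nothing below separates the effect of the deletions from that of the hour. The labels give no further detail of the alleles, and none says whether the 2 libraries of a time point came from separate animals. The p-values therefore measure the spread between libraries, which may be technical.

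CRY1 and CRY2 are the cryptochromes, proteins that repress transcription driven by CLOCK and BMAL1 and so close the feedback loop of the circadian clock. Mice without both have no self-sustained clock, but the liver still receives daily signals from feeding, body temperature, hormones and the light cycle. A mouse fed at night is in the fed state at ZT18 and is drawing on its stores at ZT06. In the liver, feeding is known to favour lipid synthesis, glycogen storage and secretory protein production. Fasting is known to favour fatty acid oxidation through PPARA, gluconeogenesis through FOXO1 and CREB, and autophagy. Chaperones of the cytosol are controlled by heat shock factor 1, which follows body temperature and protein load, and chaperones of the endoplasmic reticulum (ER) by ATF6, XBP1 and IRE1, which respond to unfolded secretory proteins.

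The deposited table held whole exon counts for 22618 genes, and 17142 genes passed a filter on low counts. The 4 libraries held between 34715506 and 42018927 counts, and all 12 between 34715506 and 46074052. A gene with no count in a library could have been present at up to 0.0651 to 0.0864 CPM (a count divided by its library total and brought to one scale), the level of 3 counts, a limit that covers counting error only. Levels below are CPM after scaling for library composition, and each pair of values gives replicate 1 and then replicate 2. Log2 differences are ZT18 minus ZT06 with their SE, and a gene was called when edgeR's quasi-likelihood test over all 12 libraries gave a Benjamini-Hochberg adjusted p under 0.05. Gene counts of the deleted genes did not check the genotype, since reads outside a deleted part can still be counted: Cry1 had 346 and 252 reads at ZT06 and 365 and 376 at ZT18, and Cry2 had 783 and 811 at ZT06 and 648 and 575 at ZT18.

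The 2 libraries of ZT06 were less alike than the 2 of ZT18. Over the 9876 genes of at least 5 CPM, the log2 ratio of replicate 1 to replicate 2 had an SD of 0.341 at ZT06 and 0.205 at ZT18, and 157 genes differed by more than 2-fold at ZT06 against 34 at ZT18. The pair of ZT18 was the closest of the 6 pairs, and the pair of ZT06 ranked between those of ZT02 and ZT10, whose SDs were 0.338 and 0.361. Neither pair agreed within sampling noise, with a chi-square per degree of freedom of 78.7 at ZT06 and 15.5 at ZT18, so all were kept as separate samples. Log2 levels correlated at 0.981 within ZT06, at 0.993 within ZT18 and at 0.967 to 0.978 between a library of one time and a library of the other.

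Both sides had the profile of whole liver. Alb, which encodes albumin, was at 69082 and 68539 CPM at ZT06 and 57723 and 59433 CPM at ZT18. The 8 hepatocyte markers summed to 90882 and 87032 CPM at ZT06 and to 78500 and 81175 CPM at ZT18, and 0 of the 8 had an unadjusted p under 0.05. Of the other cell types, sums over markers of Kupffer cells were 433 to 541 CPM, of sinusoidal endothelium 569 to 635, of stellate cells and fibroblasts 434 to 529, of bile duct cells 50.1 to 76.0, of lymphocytes 16.4 to 23.8, of neutrophils and monocytes 3.72 to 5.29 and of red cells 118 to 172. The ranges of the 2 times overlapped in each of these 7 sums except that of neutrophils and monocytes, which was at 5.29 and 5.14 CPM at ZT06 and at 4.96 and 3.72 at ZT18. Single genes weighed heavily in some sums. Alas2 alone was at 72.8 to 110 CPM in that of red cells, and Spp1 at 33.7 to 61.3 CPM in that of bile duct cells. Among the pancreatic acinar markers, Cela1 made up nearly all of the 9.16 to 16.5 CPM, and Zg16 was at 0 in all 4 libraries. The adipocyte markers summed to 0.0263 to 0.253 CPM, with Plin1 at 0 in all 4. No tested marker of a cell type other than hepatocytes was called by edgeR, DESeq2 or limma-voom, and edgeR gave an unadjusted p under 0.05 for 2 of them, the lymphocyte genes Cd8a and Cd2. In whole tissue, fewer cells of a type and less RNA per cell cannot be told apart.

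Between ZT18 and ZT06, 95 of 17142 genes were called (0.554%), 56 of them higher at ZT18 (0.327%) and 39 lower (0.228%). The median log2 difference of the called genes was 1.03 for those that rose and -0.84 for those that fell. An unadjusted p under 0.05 was reached by 17.6% of the tested genes, 8.67% higher and 8.93% lower. In 25.3% of the tested genes both ZT18 libraries lay above both of ZT06, and in 25.7% both lay below. These shares are the background for the counts of each list below, and counts near them say nothing about the list in particular. The calls leaned on having 2 libraries on each side. Without ZT06 replicate 1, 28 genes were called and 18 of them were among the 95. Without ZT06 replicate 2 and without ZT18 replicate 2, edgeR called 0 genes, with 2338 and 2014 genes at an unadjusted p under 0.05. Without ZT18 replicate 1 the calls were 2, Creld2 and Irs2. The direction of all 95 differences was the same in these 4 fits. DESeq2 called 692 of the 17142 genes, all 95 among them. Its list counts below are to be read beside this larger share.

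**Figure D1:**
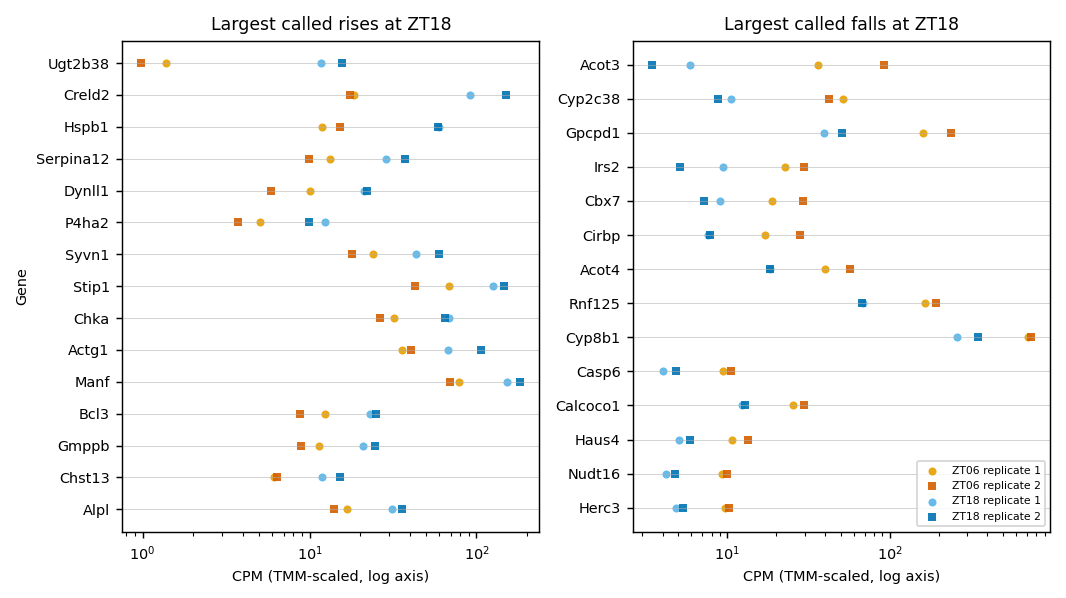
CPM on a log axis in each of the 4 libraries (orange and red for ZT06, light and dark blue for ZT18, circles for replicate 1 and squares for replicate 2) of 15 of the largest called rises and 14 of the largest called falls at ZT18 among genes of at least 5 CPM. In each gene both libraries of one time lie apart from both of the other, and Creld2 moves from 17.4 to 18.5 CPM at ZT06 up to 91.3 to 150.5 CPM at ZT18.

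In a list of ER chaperones and unfolded protein response genes, 3 rose at ZT18. Creld2, an ER protein with a role in folding and in the response to unfolded proteins, was at 18.5 and 17.4 CPM at ZT06 and 91.3 and 150.5 CPM at ZT18 (log2 difference 2.75 ± 0.29, adjusted p = 0.00770). Its gene lies at chr15:88819646-88826683 on mm10. Syvn1, the ubiquitin ligase HRD1 that marks misfolded ER proteins for degradation, was at 23.9 and 17.9 CPM at ZT06 and 43.5 and 59.6 CPM at ZT18 (log2 difference 1.30 ± 0.19, adjusted p = 0.0300). Manf, a small protein of the ER that is released during ER stress, was at 79.1 and 69.4 CPM at ZT06 and 151 and 184 CPM at ZT18 (log2 difference 1.17 ± 0.21, adjusted p = 0.0466). For these 3 genes every ZT18 value lay above every ZT06 value, and the higher of the ZT18 values was that of replicate 2. With 1 compared library left out, Creld2 stayed called without ZT06 replicate 1 and without ZT18 replicate 1, Syvn1 without ZT06 replicate 1 alone, and Manf in none of the fits. Their adjusted p reached 0.0917 for Creld2, 0.216 for Syvn1 and 0.242 for Manf.

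The promoters of Creld2 and Syvn1 are shown because both hold the ER stress element, the sequence bound by ATF6 together with NF-Y, searched on both strands as CCAAT and CCACG with 9 bases of any kind between them. They are the 250 bases before the RefSeq start site on GRCm38.p6, plus strand, at chr15:88819396-88819645 for Creld2 and chr19:6046326-6046575 for Syvn1, with the element in capitals. 

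Creld2: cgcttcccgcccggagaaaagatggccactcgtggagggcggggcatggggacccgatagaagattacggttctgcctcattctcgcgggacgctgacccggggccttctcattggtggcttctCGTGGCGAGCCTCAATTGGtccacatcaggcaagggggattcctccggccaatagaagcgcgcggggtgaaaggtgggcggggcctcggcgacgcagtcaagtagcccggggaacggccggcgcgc

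Syvn1: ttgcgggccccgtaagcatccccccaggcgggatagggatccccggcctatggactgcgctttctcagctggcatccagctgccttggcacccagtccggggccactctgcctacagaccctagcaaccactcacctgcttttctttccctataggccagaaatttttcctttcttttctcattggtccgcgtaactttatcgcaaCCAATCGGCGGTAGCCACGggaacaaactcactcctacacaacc

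In Creld2 the element is on the strand opposite to the gene and starts 126 bases before the start site, and in Syvn1 it is on the strand of the gene and starts 44 bases before it. The element was present in 37 of 32851 windows of this length (0.113%), and in 9 of the 23 members of the ER chaperone list that had a window: Hspa5, Hsp90b1, Calr, Canx, Pdia6, Creld2, Dnajc3, Syvn1 and Derl3. The background counts windows, while a list member was counted once if any of its windows matched, so the shares have unlike units. The list was drawn up from genes of this response, so its share is given as a description. A match describes the letters and does not show that a factor was bound there.

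Of the 26 tested genes of that list, these 3 were called, all higher, against 0.327% of all genes, and 14 reached an unadjusted p under 0.05, all higher, against 8.67%. Both ZT18 libraries lay above both of ZT06 in 19 of the 26 and below in 0, against 25.3% and 25.7% of all genes. The median log2 difference was 0.74, against 0.00 over all genes tested. DESeq2 called 12 members, against 692 of all 17142 genes. The next members by p, chosen after their values were seen, were Sdf2l1, a partner of ER chaperones, at 19.8 and 13.6 CPM at ZT06 and 57.8 and 82.9 CPM at ZT18 (log2 difference 2.07 ± 0.40, adjusted p = 0.0508), and Hyou1, an ER chaperone of the HSP70 family, at 194 and 144 CPM at ZT06 and 502 and 663 CPM at ZT18 (log2 difference 1.78 ± 0.37, adjusted p = 0.0561). Hspa5, the ER chaperone BiP, was picked in the same way and was at 610.2 and 427 CPM at ZT06 and 1015 and 1395 CPM at ZT18 (log2 difference 1.22 ± 0.30, adjusted p = 0.0856). None of the 3 passed edgeR's threshold, although their libraries did not overlap.

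In a list of heat shock factor targets, 5 genes rose at ZT18, most of them HSP90 or its partners. Hspb1, a small heat shock protein, was at 11.9 and 15.1 CPM at ZT06 and 60.01 and 58.6 CPM at ZT18 (log2 difference 2.13 ± 0.27, adjusted p = 0.0197). Hsp90ab1, the constitutive form of HSP90 in the cytosol, was at 631 and 545 CPM at ZT06 and 1009 and 1185 CPM at ZT18 (log2 difference 0.90 ± 0.14, adjusted p = 0.0300). Ahsa1, which stimulates the ATPase of HSP90, was at 59.7 and 53.7 CPM at ZT06 and 99.9 and 107 CPM at ZT18 (log2 difference 0.87 ± 0.11, adjusted p = 0.0197). Each of them had both ZT18 libraries above both of ZT06, and the 2 libraries of ZT06 differed by less than the step to ZT18. Stip1, which passes clients from HSP70 to HSP90, was at 68.1 and 42.6 CPM at ZT06 and 125 and 145 CPM at ZT18 (log2 difference 1.29 ± 0.20, adjusted p = 0.0300). Fkbp4, an HSP90 co-chaperone of steroid receptors named after its values were seen, was at 163 and 117 CPM at ZT06 and 259.7 and 273 CPM at ZT18 (log2 difference 0.93 ± 0.16, adjusted p = 0.0454). In Stip1 and Fkbp4, ZT06 replicate 1 lay between ZT06 replicate 2 and the ZT18 libraries. Hspb1 has a processed pseudogene, Hsp25-ps1, that was called higher as well, and reads of the copies may have been split between them.

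Cirbp, a cold-inducible RNA-binding protein placed in the same list because its level is known to move against body temperature, fell. It was at 17.2 and 27.9 CPM at ZT06 and 7.56 and 7.79 CPM at ZT18 (log2 difference -1.55 ± 0.25, adjusted p = 0.0305), and ZT06 replicate 2 was the highest of the 4 values. Among the 22 genes of the list, 5 were called higher and 1, Cirbp, lower, against 0.327% and 0.228% of all genes. An unadjusted p under 0.05 was reached by 14 in the higher direction and 1 in the lower, against 8.67% and 8.93%. The median log2 difference of the list, Cirbp included, was 0.55. Hsp90aa1, the inducible form of HSP90, was at 159 and 71.0 CPM at ZT06 and 363 and 454 CPM at ZT18 (log2 difference 1.83 ± 0.36, adjusted p = 0.0508), and Hsph1, an HSP110 chaperone, at 31.4 and 15.3 CPM at ZT06 and 58.9 and 74.0 CPM at ZT18 (log2 difference 1.51 ± 0.31, adjusted p = 0.0543), both chosen after their values were seen. Neither passed. In 20 of the 22 genes of the list ZT06 replicate 1 was above replicate 2, with a median of 1.38-fold, and the median difference was 0.36 against replicate 1 and 0.98 against replicate 2. Without ZT06 replicate 1, Stip1, Ahsa1, Fkbp4 and Cirbp were still called and Hspb1 and Hsp90ab1 were not (adjusted p = 0.0651 and 0.0605). None of the 6 was called in the other 3 leave-one-out fits, where the adjusted p reached 0.252 for Cirbp.

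The promoter of Hspb1 is shown because it holds the paired half-sites of a heat shock element, GAANNTTC, in capitals. It is again the 250 bases before the RefSeq start site on GRCm38.p6, plus strand, at chr5:135887669-135887918.

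Hspb1: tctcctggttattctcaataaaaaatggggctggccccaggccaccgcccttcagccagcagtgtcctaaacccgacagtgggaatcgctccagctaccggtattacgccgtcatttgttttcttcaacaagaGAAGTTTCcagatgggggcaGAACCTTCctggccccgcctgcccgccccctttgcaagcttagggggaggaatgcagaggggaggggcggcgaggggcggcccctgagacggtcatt

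Hspb1 holds the pattern starting 117 and 97 bases before its start site. The pattern reads the same on both strands. It was in 6.69% of all windows and in 7 of the 18 list members with a window. These were Hspa1a, Hspa1b, Dnaja1, Hspb1, Fkbp4, Hspd1 and Hspe1. The reverse arrangement, TTCNNGAA, was in 7.17% of all windows and in 3 of the 18. Here too the percentages count windows and the list counts genes, and the list was drawn up from genes of this response. The window of Ahsa1, called with the same adjusted p as Hspb1, was searched as well. It held 0 matches to GAANNTTC and is not printed. That window spans chr12:87266478-87266727, and GENCODE places the start of Ahsa1 at 87266479. Bases further upstream of Ahsa1 were not searched, so the result does not cover them.

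**Figure D2:**
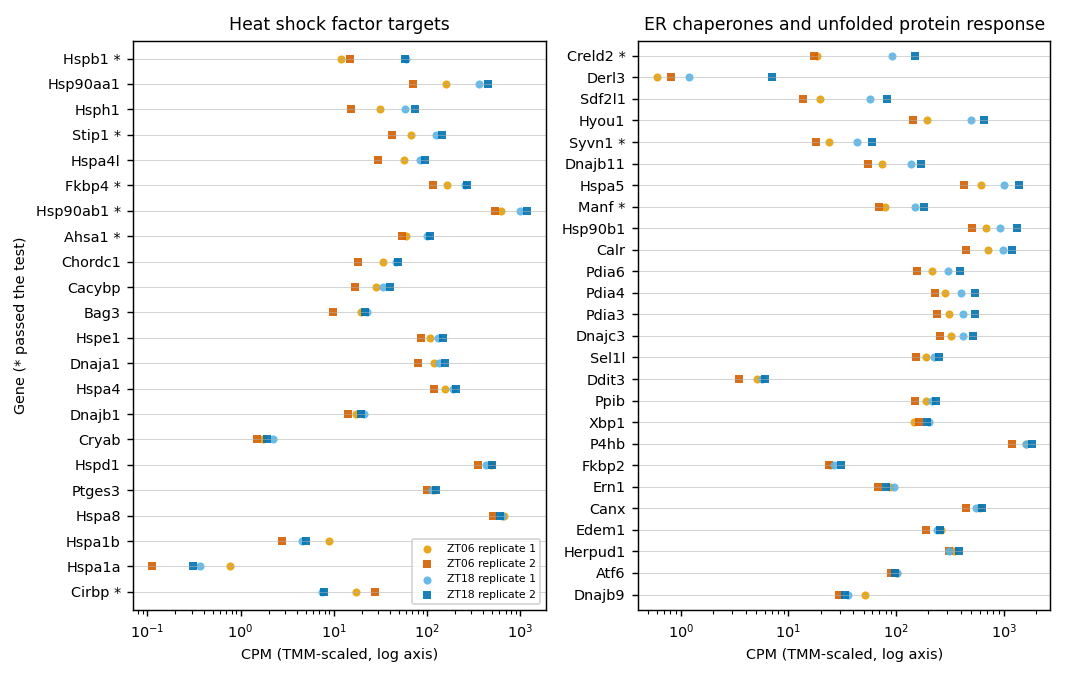
CPM on a log axis in each of the 4 libraries for both chaperone lists. They are the 22 genes of the heat shock list, the cold-inducible Cirbp included, and the 26 ER chaperone and unfolded protein response genes. Genes are ordered by log2 difference, and an asterisk marks those that passed the test. In 16 heat shock genes and 19 ER genes both ZT18 libraries (blue) lie above both ZT06 libraries (orange and red). Over all genes tested the share was 25.3%. ZT06 replicate 1 (circles) mostly lies between ZT06 replicate 2 and ZT18.

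Other genes of the secretory route were called singly. Gmppb, which makes the GDP-mannose used in glycosylation, was at 11.4 and 8.86 CPM at ZT06 and 20.9 and 24.6 CPM at ZT18 (log2 difference 1.17 ± 0.22, adjusted p = 0.0486). P4ha2, a subunit of the collagen prolyl hydroxylase of the ER, was at 5.04 and 3.71 CPM at ZT06 and 12.3 and 9.90 CPM at ZT18 (log2 difference 1.34 ± 0.24, adjusted p = 0.0460). Mlec and Mogs, a glucose-binding lectin and the first glucosidase of the ER glycan pathway, were chosen after their values were seen. Mlec was at 126 and 105 CPM at ZT06 and 219.5 and 252 CPM at ZT18 (log2 difference 1.03 ± 0.17, adjusted p = 0.0327), and Mogs at 46.1 and 42.6 CPM at ZT06 and 69.8 and 69.8 CPM at ZT18 (log2 difference 0.65 ± 0.12, adjusted p = 0.0466). In each of these genes the groups did not overlap, and each lost its call in all 4 leave-one-out fits, with an adjusted p of up to 0.296 for P4ha2. In the list of 26 translocon, glycosylation and COPII genes, which carry new proteins into and out of the ER, 0 were called by edgeR. DESeq2 called 2, against 692 of all 17142 genes. An unadjusted p under 0.05 was reached by 10, all higher, against 8.67% of all genes. The median log2 difference of the list was 0.24. Srprb, a subunit of the signal recognition particle receptor chosen after its values were seen, had the smallest p of the list, at 21.2 and 18.5 CPM at ZT06 and 32.3 and 30.9 CPM at ZT18 (log2 difference 0.67 ± 0.14, adjusted p = 0.0632). The 2 most abundant members overlapped between the times: Ssr3, a translocon-associated protein, was at 338 and 219 CPM at ZT06 and 294 and 335 CPM at ZT18, and Tram1, another, at 297 and 220.5 CPM at ZT06 and 283 and 314 CPM at ZT18.

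The lists of ribosome and proteasome genes held no called gene. Of 75 cytosolic ribosomal protein genes, 0 were called by edgeR or DESeq2 and 0 reached an unadjusted p under 0.05, and their log2 differences ran from -0.19 to 0.26 with a median of 0.09. Both ZT18 libraries lay above both of ZT06 in 32 of the 75 and below in 3, against 25.3% and 25.7% of all genes. Rpl4 was at 411 and 415 CPM at ZT06 and 422 and 409.8 CPM at ZT18, with a 95% interval of the log2 difference of -0.25 to 0.26, and Rps2 at 404 and 376 CPM at ZT06 and 377 and 362 CPM at ZT18, with an interval of -0.35 to 0.20. Of 32 proteasome genes, 0 were called by either tool and 2 had an unadjusted p under 0.05, both higher, against 8.67% of all genes. Of the 32, 31 were higher in ZT06 replicate 1 than in replicate 2. Of 26 ribosome biogenesis genes, 0 were called by edgeR and 2 by DESeq2, which called 692 of all 17142 genes. At an unadjusted p under 0.05, 4 were higher and 1 lower, against 8.67% and 8.93% of all genes. The 2 most abundant were the nucleolar proteins Ncl, at 103 and 107 CPM at ZT06 and 95.2 and 101 CPM at ZT18, and Npm1, at 104 and 115 CPM at ZT06 and 80.9 and 83.3 CPM at ZT18 (log2 difference -0.41 ± 0.18, adjusted p = 0.256). Polyamine synthesis, chosen after its values were seen, had 2 called enzymes: Odc1, ornithine decarboxylase, was at 73.3 and 61.3 CPM at ZT06 and 128 and 141 CPM at ZT18 (log2 difference 0.99 ± 0.16, adjusted p = 0.0300), and Srm, spermidine synthase, at 19.3 and 20.3 CPM at ZT06 and 36.2 and 37.6 CPM at ZT18 (log2 difference 0.90 ± 0.13, adjusted p = 0.0300). Both were higher in each ZT18 library, and neither was called in any leave-one-out fit (adjusted p up to 0.216 for both).

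Enzymes of choline phospholipids moved in opposite directions, a pair noticed after their values were seen. Chka, the kinase that takes choline into phosphatidylcholine synthesis, was at 32.3 and 26.3 CPM at ZT06 and 68.7 and 64.6 CPM at ZT18 (log2 difference 1.19 ± 0.12, adjusted p = 0.00770), the smallest p of all genes. Gpcpd1, a phosphodiesterase that frees choline from glycerophosphocholine, was at 161 and 239 CPM at ZT06 and 39.5 and 51.0 CPM at ZT18 (log2 difference -2.14 ± 0.25, adjusted p = 0.0170), 4.42-fold lower at ZT18. In both genes the 2 times were further apart than the libraries within either. Both genes stayed called without ZT06 replicate 1 and lost the call without any other compared library, with an adjusted p of up to 0.109 for Chka and 0.153 for Gpcpd1.

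The other large rises were scattered over functions. Ugt2b38, a UDP-glucuronosyltransferase, was at 1.37 and 0.984 CPM at ZT06 and 11.7 and 15.6 CPM at ZT18 (log2 difference 3.52 ± 0.56, adjusted p = 0.0300), the largest rise among called genes of at least 5 CPM, in a family whose near-identical members may share reads. Serpina12, the serpin vaspin, was at 13.3 and 9.87 CPM at ZT06 and 28.6 and 37.1 CPM at ZT18 (log2 difference 1.502 ± 0.26, adjusted p = 0.0380). Dynll1, a light chain of the dynein motor, was at 10.1 and 5.88 CPM at ZT06 and 21.2 and 22.2 CPM at ZT18 (log2 difference 1.44 ± 0.27, adjusted p = 0.0478). In Dynll1 the ZT06 libraries lay 1.71-fold apart, with replicate 1 nearer to ZT18. Actg1, gamma-actin, was at 36.1 and 40.8 CPM at ZT06 and 67.7 and 107 CPM at ZT18 (log2 difference 1.18 ± 0.22, adjusted p = 0.0469), and has processed copies elsewhere in the genome. Bcl3, a nuclear IκB protein, was at 12.4 and 8.83 CPM at ZT06 and 23.1 and 24.9 CPM at ZT18 (log2 difference 1.17 ± 0.22, adjusted p = 0.0490). Chst13, a chondroitin sulfotransferase, was at 6.09 and 6.38 CPM at ZT06 and 11.9 and 15.3 CPM at ZT18 (log2 difference 1.12 ± 0.21, adjusted p = 0.0486). Alpl, the tissue-nonspecific alkaline phosphatase, was at 16.8 and 14.1 CPM at ZT06 and 31.3 and 35.9 CPM at ZT18 (log2 difference 1.12 ± 0.21, adjusted p = 0.0469). Of these 7 genes only Dynll1 kept its call in a leave-one-out fit, that without ZT06 replicate 1. Their adjusted p reached 0.265 for Chst13.

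In a list of fatty acid oxidation genes and PPARA targets, 2 fell at ZT18. Acot3, an acyl-CoA thioesterase of the peroxisome, was at 36.2 and 92.8 CPM at ZT06 and 5.91 and 3.45 CPM at ZT18 (log2 difference -3.78 ± 0.59, adjusted p = 0.0300), the largest fall among called genes of at least 5 CPM. The gene lies at chr12:84052144-84060402, next to Acot4, a second peroxisomal thioesterase, at chr12:84038379-84048601 on mm10. Acot4 was at 40.1 and 56.7 CPM at ZT06 and 18.2 and 18.4 CPM at ZT18 (log2 difference -1.40 ± 0.22, adjusted p = 0.0300). In both genes ZT06 replicate 2 held the highest value, and near-identical neighbours of this cluster may share reads. Acot3 and Acot4 stayed called without ZT06 replicate 1 and lost the call without each other compared library, with an adjusted p of up to 0.247 for Acot4.

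Of the 33 tested genes of that list, these 2 were called, both lower, against 0.228% of all genes, and 15 had an unadjusted p under 0.05, all lower, against 8.93%. Both ZT18 libraries lay below both of ZT06 in 23 and above in 2, against 25.7% and 25.3% of all genes. The list's median log2 difference was -0.40, and DESeq2 called 7, against 692 of all 17142 genes. The other members named here were chosen after their values were seen, and none passed edgeR's threshold. Ehhadh, the bifunctional enzyme of peroxisomal oxidation, was at 529 and 436 CPM at ZT06 and 269 and 310.3 CPM at ZT18 (log2 difference -0.74 ± 0.17, adjusted p = 0.0681). Cyp4a14, a fatty acid hydroxylase and a classical PPARA target, was at 382 and 894 CPM at ZT06 and 154 and 205 CPM at ZT18 (log2 difference -1.83 ± 0.42, adjusted p = 0.0707). Cpt1a, which admits fatty acids to the mitochondrion, was at 322 and 591 CPM at ZT06 and 228 and 266 CPM at ZT18 (log2 difference -0.88 ± 0.27, adjusted p = 0.134), and Ppara itself at 145 and 256 CPM at ZT06 and 122 and 129 CPM at ZT18 (log2 difference -0.67 ± 0.23, adjusted p = 0.172). Cyp4a14, Cpt1a and Ppara were each higher in ZT06 replicate 2 than in replicate 1, and Ehhadh was higher in replicate 1. Over the list, 23 of 33 genes were higher in replicate 2, and the median difference was -0.16 against replicate 1 and -0.51 against replicate 2. Abcd2, a peroxisomal fatty acid transporter, was at 11.5 and 19.4 CPM at ZT06 and 3.49 and 2.64 CPM at ZT18 (log2 difference -2.33 ± 0.72, adjusted p = 0.141).

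Among 10 genes of ketone body synthesis and export, 1 was called by edgeR, higher, and 2 by DESeq2. At an unadjusted p under 0.05, 1 was higher and 4 were lower, against 8.67% and 8.93% of all genes. Both ZT18 libraries lay above both of ZT06 in 1 and below in 5, against 25.3% and 25.7%. The list's median log2 difference was -0.27. Slc16a6, the carrier that exports ketone bodies from hepatocytes, rose from a low level, at 2.37 and 2.08 CPM at ZT06 and 5.70 and 5.37 CPM at ZT18 (log2 difference 1.31 ± 0.23, adjusted p = 0.0455). Slc16a7, a monocarboxylate carrier chosen after its values were seen, was at 64.6 and 73.6 CPM at ZT06 and 35.2 and 34.1 CPM at ZT18 (log2 difference -0.995 ± 0.20, adjusted p = 0.0543) and did not pass. Slc16a6 lost its call in each leave-one-out fit, with an adjusted p of up to 0.257.

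The list of insulin signalling and FOXO targets held 2 genes that fell at ZT18. Irs2, the insulin receptor substrate that is induced in the fasted liver, was at 22.7 and 29.5 CPM at ZT06 and 9.40 and 5.14 CPM at ZT18 (log2 difference -1.84 ± 0.23, adjusted p = 0.0197), and both ZT18 libraries were below the lower ZT06 library. Irs2 stayed called without ZT06 replicate 1 and without ZT18 replicate 1, and had an adjusted p of up to 0.0976 in the other fits. Trib3, a pseudokinase that binds AKT and also a target of ATF4, was at 4.77 and 6.04 CPM at ZT06 and 2.57 and 2.84 CPM at ZT18 (log2 difference -0.997 ± 0.19, adjusted p = 0.0496), close to the threshold. They were the called members of a list of 20 genes of insulin signalling and FOXO targets. At an unadjusted p under 0.05 there were 5, all lower, against 8.93% of all genes, and the list's median log2 difference was 0.04. DESeq2 called 4 of the 20, against 692 of all 17142 genes. Insr, the insulin receptor, was at 220.3 and 231 CPM at ZT06 and 166 and 166 CPM at ZT18 (log2 difference -0.44 ± 0.11, adjusted p = 0.0838), and was picked with its values in view. Trib3 was also the 1 called member of 18 genes of the ATF4 amino acid response, whose median was 0.19, and it lost its call in every leave-one-out fit (adjusted p up to 0.316).

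The list of glucose uptake, glycolysis and glycogen held 1 called gene among 24, Ppp1r3g, which was lower, against 0.228% of all genes. At an unadjusted p under 0.05, 5 were higher and 2 lower, against 8.67% and 8.93% of all genes. The list's median log2 difference was -0.03, and DESeq2 called 2 of the 24, against 692 of all 17142 genes. Ppp1r3g, a glycogen-targeting subunit of protein phosphatase 1, fell from 3.95 and 2.87 CPM at ZT06 to 0.158 and 0.306 CPM at ZT18 (log2 difference -3.87 ± 0.62, adjusted p = 0.0300), which rests on 6 and 11 reads at ZT18. It was not called in any leave-one-out fit, with an adjusted p of up to 0.296. Ppp1r3b, another glycogen-targeting subunit, was at 447 and 251 CPM at ZT06 and 564 and 655 CPM at ZT18 (log2 difference 0.81 ± 0.31, adjusted p = 0.217), and Pfkfb3, which sets the level of a glycolytic activator, at 7.24 and 6.97 CPM at ZT06 and 15.5 and 20.7 CPM at ZT18 (log2 difference 1.35 ± 0.46, adjusted p = 0.169). Both were chosen after their values were seen, their groups did not overlap, and neither passed. Of 14 gluconeogenesis genes, 0 were called by edgeR or DESeq2. At an unadjusted p under 0.05, 1 was higher and 4 were lower, against 8.67% and 8.93% of all genes. The 2 most abundant were Pck1, the rate-limiting enzyme, at 1791 and 1764 CPM at ZT06 and 1368 and 2174 CPM at ZT18, and Tat, tyrosine aminotransferase, at 1137 and 561 CPM at ZT06 and 1339.9 and 1626 CPM at ZT18. Pck1 overlapped between the times, with a 95% interval of -1.01 to 0.997 for the log2 difference, and in Tat the ZT06 libraries differed by 2.02-fold. G6pc, the glucose-releasing phosphatase, was at 672 and 354 CPM at ZT06 and 197 and 273 CPM at ZT18 (log2 difference -1.13 ± 0.35, adjusted p = 0.146), chosen after its values were seen.

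The list of bile acid synthesis and transport held 1 gene that fell at ZT18. Cyp8b1, the sterol hydroxylase that directs synthesis towards cholic acid, was at 714 and 748 CPM at ZT06 and 259 and 349 CPM at ZT18 (log2 difference -1.26 ± 0.23, adjusted p = 0.0469), and the 2 ZT06 libraries were 1.05-fold apart. It lost its call in each leave-one-out fit, with an adjusted p of up to 0.329. It was the 1 called member of 24 bile acid synthesis and transport genes. At an unadjusted p under 0.05 the list had 12 lower and 2 higher, against 8.93% and 8.67% of all genes. Both ZT18 libraries lay below both of ZT06 in 16 and above in 2, against 25.7% and 25.3%. The list's median log2 difference was -0.32, and DESeq2 called 6, against 692 of all 17142 genes. The following members were chosen after their values were seen and did not pass edgeR's threshold. Cyp7a1, the rate-limiting enzyme of the classical pathway, was at 474 and 245 CPM at ZT06 and 69.4 and 108 CPM at ZT18 (log2 difference -2.02 ± 0.43, adjusted p = 0.0622). Nr1h4, the bile acid receptor FXR, was at 153 and 167 CPM at ZT06 and 119 and 105 CPM at ZT18 (log2 difference -0.51 ± 0.11, adjusted p = 0.0678). The 2 with an unadjusted p under 0.05 in the higher direction were Cyp7b1, an enzyme of the alternative pathway, at 156 and 151 CPM at ZT06 and 441 and 597 CPM at ZT18 (log2 difference 1.76 ± 0.59, adjusted p = 0.167), and Nr0b2, the repressor SHP, at 25.3 and 31.4 CPM at ZT06 and 51.8 and 76.0 CPM at ZT18 (log2 difference 1.17 ± 0.35, adjusted p = 0.132). Abcg5 and Abcg8, which together form the sterol exporter of the canalicular membrane, were at 61.6 and 75.7 CPM against 40.2 and 40.5 CPM and 71.7 and 102 CPM against 44.6 and 45.2 CPM, ZT06 first (adjusted p = 0.102 and 0.0922).

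In the lists of fatty acid and triglyceride synthesis and of cholesterol synthesis and uptake no gene was called, and in these genes the 2 libraries of ZT06 stood far apart. All 24 tested genes of fatty acid and triglyceride synthesis were higher in ZT06 replicate 1 than in replicate 2, 15 of them by more than 2-fold, with a median of 2.30-fold and log2 ratios from 0.04 to 3.54. The same ratio at ZT18 had a median log2 of 0.23, and over all genes tested the median at ZT06 was -0.01. Thrsp, a lipogenic protein induced by carbohydrate, was at 999 and 86.1 CPM at ZT06 and 925 and 720.1 CPM at ZT18. Fasn, the fatty acid synthase, was at 1898 and 273 CPM at ZT06 and 2149 and 1599 CPM at ZT18. Acly, ATP citrate lyase, was at 1078 and 167 CPM at ZT06 and 531 and 474 CPM at ZT18. In these 3 genes ZT06 replicate 1 lay within or above the ZT18 range and ZT06 replicate 2 lay below both ZT18 libraries. Me1, the malic enzyme that supplies NADPH, was at 229.7 and 28.3 CPM at ZT06 and 38.9 and 36.4 CPM at ZT18, and here ZT06 replicate 2 lay below ZT18 and replicate 1 stood far above the other 3. Elovl6, which elongates palmitate, was at 572 and 74.4 CPM at ZT06 and 256 and 171 CPM at ZT18, and Acss2, the cytosolic acetyl-CoA synthetase, at 651 and 139.9 CPM at ZT06 and 191 and 162 CPM at ZT18. Srebf1, which encodes the transcription factor SREBP1, was at 519.6 and 231 CPM at ZT06 and 520.5 and 428 CPM at ZT18, and Mlxipl, which encodes ChREBP, at 272 and 162 CPM at ZT06 and 239 and 205 CPM at ZT18.

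By edgeR and by DESeq2, 0 of the 24 were called, and 2 had an unadjusted p under 0.05, both lower, against 8.93% of all genes. Elovl5, an elongase of polyunsaturated fatty acids, was at 988 and 495 CPM at ZT06 and 269 and 272 CPM at ZT18 (log2 difference -1.45 ± 0.47, adjusted p = 0.160), with both ZT18 libraries below both of ZT06. Me1 had a log2 difference of -1.78 (adjusted p = 0.255), which turned to 0.41 without ZT06 replicate 1. Scd1, the stearoyl-CoA desaturase and the most abundant of the list, was at 20604 and 6053 CPM at ZT06 and 5659 and 3907 CPM at ZT18 (log2 difference -1.48 ± 0.75, adjusted p = 0.337). Fasn, second in abundance, had a log2 difference of 0.79 ± 0.88, and a value of 2.78 without ZT06 replicate 1 and -0.01 without replicate 2. The list's median difference was -0.08 over both libraries, -0.30 against replicate 1 and 0.57 against replicate 2. Members with nearly equal ZT06 libraries included the triglyceride synthase Dgat2, at 529 and 514 CPM at ZT06 and 481 and 517 CPM at ZT18, and the desaturases Fads2, at 368 and 354 CPM at ZT06 and 307 and 324 CPM at ZT18, and Fads1, at 527 and 460.0 CPM at ZT06 and 400.1 and 405 CPM at ZT18.

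Cholesterol genes, which are driven by SREBP2, were likewise apart between the ZT06 libraries. Of the 26 tested, 25 were higher in ZT06 replicate 1, with a median of 2.09-fold, and 14 differed by more than 2-fold; the median log2 ratio of the ZT18 pair was -0.12. The exception was Srebf2 itself, at 27.7 and 32.2 CPM at ZT06 and 36.0 and 42.1 CPM at ZT18. By edgeR and by DESeq2, 0 were called. At an unadjusted p under 0.05, 2 were higher and 1 lower, against 8.67% and 8.93% of all genes. Both ZT18 libraries were above both of ZT06 in 10 genes and below in 1, against 25.3% and 25.7% of all genes. The median log2 difference was 0.33, with -0.10 against replicate 1 and 0.94 against replicate 2. Sqle, squalene epoxidase, was at 55.5 and 21.3 CPM at ZT06 and 96.4 and 101 CPM at ZT18 (log2 difference 1.36 ± 0.79, adjusted p = 0.404). Mvd, which makes isopentenyl diphosphate, was at 13.8 and 6.10 CPM at ZT06 and 25.6 and 30.1 CPM at ZT18 (log2 difference 1.48 ± 0.66, adjusted p = 0.274). Both were above ZT06 in both ZT18 libraries and did not pass. Insig1, the abundant ER anchor that retains SREBP, was likewise higher in both ZT18 libraries, at 549 and 335 CPM at ZT06 and 705 and 670.4 CPM at ZT18. Fdps, farnesyl diphosphate synthase, had the widest ZT06 pair of the list, at 249 and 61.5 CPM at ZT06 and 183 and 189 CPM at ZT18. Scap, the escort of SREBP, was the 1 member below in both ZT18 libraries, at 155 and 141 CPM at ZT06 and 113 and 121 CPM at ZT18 (log2 difference -0.34 ± 0.11, adjusted p = 0.148).

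**Figure D3:**
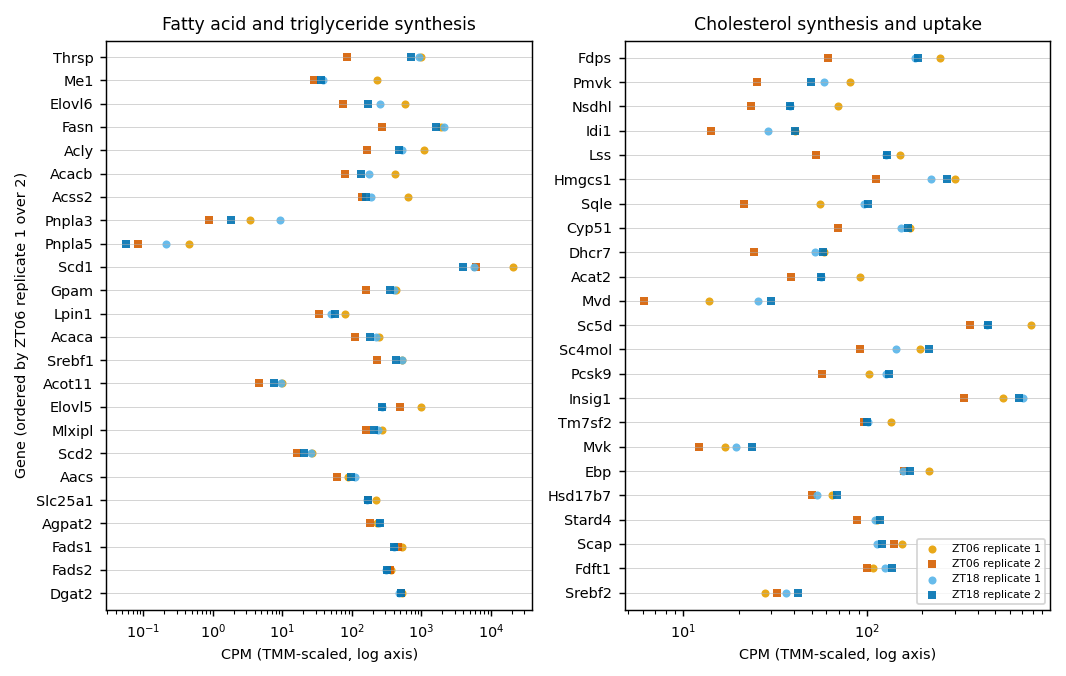
CPM on a log axis in each of the 4 libraries for the 24 fatty acid and triglyceride synthesis genes and 23 of the 26 cholesterol synthesis and uptake genes, ordered by the ratio of ZT06 replicate 1 (orange circles) to replicate 2 (red squares). The ZT06 libraries are apart by up to 11.6-fold, in Thrsp, while the ZT18 libraries (blue) lie close together in nearly all genes and mostly fall between them or near replicate 1.

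**Figure D4:**
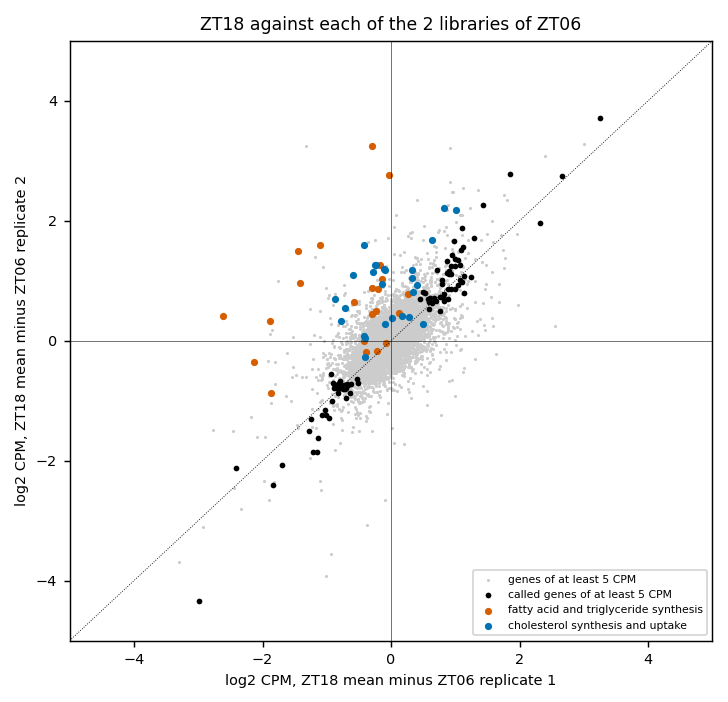
Log2 difference of the ZT18 mean from ZT06 replicate 1 (horizontal) and from ZT06 replicate 2 (vertical) for the 9859 genes of at least 5 CPM, with called genes in black and the 2 lipid lists in colour; 2 genes lie outside the axes and the dotted line marks equal differences. Called genes lie along the dotted line away from the centre, and most lipid genes lie above it.

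Of the listed 30 genes of amino acid catabolism and the urea cycle, 0 were called by edgeR. DESeq2 called 4, against 692 of all 17142 genes, and 12 had an unadjusted p under 0.05, all lower, against 8.93%. The list's median log2 difference was -0.23. The 2 most abundant differed in pattern: Cps1, the entry enzyme of the urea cycle, overlapped, at 7363 and 4612 CPM at ZT06 and 5833 and 6039 CPM at ZT18, while Mat1a, which makes S-adenosylmethionine, was lower in both ZT18 libraries, at 3503 and 3571 CPM at ZT06 and 2126 and 2315 CPM at ZT18 (log2 difference -0.67 ± 0.15, adjusted p = 0.0662). Cdo1, the cysteine dioxygenase, chosen after its values were seen, was at 1167 and 1523 CPM at ZT06 and 759 and 749.6 CPM at ZT18 (log2 difference -0.83 ± 0.18, adjusted p = 0.0594). Of 18 amino acid transporters, 0 were called by edgeR and 2 by DESeq2. At an unadjusted p under 0.05, 3 were higher and 6 lower, against 8.67% and 8.93% of all genes. Slc38a3 and Slc38a4, neutral amino acid carriers and the 2 most abundant, were at 1441 and 1267 CPM at ZT06 and 829.7 and 925 CPM at ZT18 (log2 difference -0.63 ± 0.13, adjusted p = 0.0543) and at 1432 and 1153 CPM at ZT06 and 784 and 943 CPM at ZT18 (log2 difference -0.58 ± 0.21, adjusted p = 0.183). Slc3a1, the heavy chain of the cystine transporter, chosen after its values were seen, was at 15.4 and 17.9 CPM at ZT06 and 50.2 and 36.6 CPM at ZT18 (log2 difference 1.38 ± 0.27, adjusted p = 0.0511).

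Of 20 autophagy and lysosome genes, Wipi1, which acts on the forming autophagosome, was called lower, at 12.9 and 13.9 CPM at ZT06 and 8.82 and 7.95 CPM at ZT18 (log2 difference -0.67 ± 0.13, adjusted p = 0.0478). In the list 7 had an unadjusted p under 0.05, all lower, against 8.93% of all genes. Both ZT18 libraries lay below both of ZT06 in 10 and above in 2, against 25.7% and 25.3%. The list's median log2 difference was -0.19, and DESeq2 called 6, against 692 of all 17142 genes. Gabarapl1, an ATG8 protein of the autophagosome, was at 249 and 288 CPM at ZT06 and 147 and 130.4 CPM at ZT18 (log2 difference -0.95 ± 0.19, adjusted p = 0.0543), and Bnip3, a mitophagy receptor, at 190.5 and 201 CPM at ZT06 and 129 and 134 CPM at ZT18 (log2 difference -0.58 ± 0.12, adjusted p = 0.0573). Both were chosen after their values were seen and did not pass. Wipi1 lost its call in each leave-one-out fit, with an adjusted p of up to 0.267.

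The list of drug-metabolizing cytochromes and their receptors held 2 called genes among 24, both lower. Cyp2c38, a cytochrome of the CYP2C family, was at 51.7 and 42.1 CPM at ZT06 and 10.6 and 8.76 CPM at ZT18 (log2 difference -2.28 ± 0.36, adjusted p = 0.0300), and Cyp2c54 at 699.8 and 728 CPM at ZT06 and 406 and 427 CPM at ZT18 (log2 difference -0.78 ± 0.14, adjusted p = 0.0466). The ZT06 pair of each gene was close, and members of this family are similar enough that reads may be shared. Neither was called in any leave-one-out fit, with an adjusted p of up to 0.312 for Cyp2c54. At an unadjusted p under 0.05 the list had 8 lower and 1 higher, against 8.93% and 8.67% of all genes. Its median log2 difference was -0.38, and DESeq2 called 6, against 692 of all 17142 genes. Por, the reductase that feeds electrons to these enzymes, was at 431 and 464 CPM at ZT06 and 264 and 255 CPM at ZT18 (log2 difference -0.79 ± 0.15, adjusted p = 0.0508), and Cyp2b9, a female-predominant cytochrome, at 101 and 115 CPM at ZT06 and 11.9 and 14.7 CPM at ZT18 (log2 difference -3.02 ± 0.69, adjusted p = 0.0681). Both were chosen after their values were seen, and neither passed. Of 19 NRF2 and glutathione genes, 0 were called by edgeR and 1 by DESeq2. At an unadjusted p under 0.05, 1 was higher and 2 were lower, against 8.67% and 8.93% of all genes. The 2 most abundant of the list were Cat, catalase, and Gsta3, a glutathione transferase. Cat was at 3858 and 3435 CPM at ZT06 and 2839.6 and 2968 CPM at ZT18, and Gsta3 at 2581 and 2005 CPM at ZT06 and 2065 and 2053 CPM at ZT18. In 18 of these 19 genes ZT06 replicate 1 was above replicate 2.

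Among 28 male-patterned and growth hormone-dependent genes, 2 were called, both higher: Ugt2b38, given above, and Hsd3b5, a male-predominant steroid dehydrogenase. Hsd3b5 was at 76.3 and 78.5 CPM at ZT06 and 127 and 143 CPM at ZT18 (log2 difference 0.80 ± 0.12, adjusted p = 0.0300), with each pair close together, and its adjusted p reached 0.216 with a library left out. The list had 9 higher and 2 lower at an unadjusted p under 0.05, against 8.67% and 8.93% of all genes. Its median log2 difference was 0.25. The lowest difference of the list, -3.02, was that of the female-predominant Cyp2b9 given above. The counts and the median are therefore not of male-patterned genes alone. Selenbp2, chosen after its values were seen, was at 85.7 and 71.3 CPM at ZT06 and 647 and 733 CPM at ZT18 (log2 difference 3.14 ± 0.61, adjusted p = 0.0508). Mup20, a major urinary protein that was likewise picked with its values in view, was at 1574 and 1335 CPM at ZT06 and 2926 and 4151 CPM at ZT18 (log2 difference 1.28 ± 0.39, adjusted p = 0.137), in a family whose members share most of their sequence, so that its reads may be split among copies.

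None of the core clock genes was called. Of 18 tested members of the core clock and its PAR bZIP output factors, 2 were higher and 4 lower at an unadjusted p under 0.05. The shares of all genes were 8.67% and 8.93%. The median log2 difference of the list was 0.09, and its differences ran from -0.71 to 0.61. DESeq2 called 2 of the 18, against 692 of all 17142 genes. Of the activators, Arntl, which encodes BMAL1, was at 10.6 and 9.70 CPM at ZT06 and 14.996 and 14.4 CPM at ZT18 (95% interval of the log2 difference -0.06 to 1.13), and Clock at 61.4 and 50.5 CPM at ZT06 and 76.4 and 73.2 CPM at ZT18 (log2 difference 0.42 ± 0.14, adjusted p = 0.157). Both were higher in each ZT18 library. Of the repressors, Per1 was at 21.8 and 24.1 CPM at ZT06 and 23.1 and 31.9 CPM at ZT18 and overlapped. Per2 was at 59.4 and 50.1 CPM at ZT06 and 75.8 and 80.1 CPM at ZT18 (log2 difference 0.51 ± 0.14, adjusted p = 0.115), and Per3 at 72.1 and 67.1 CPM at ZT06 and 51.3 and 55.4 CPM at ZT18 (log2 difference -0.38 ± 0.11, adjusted p = 0.115), so that they lay on opposite sides. Cry1 was at 8.64 and 7.08 CPM at ZT06 and 9.59 and 10.5 CPM at ZT18 (-0.24 to 0.94) and Cry2 at 19.6 and 22.8 CPM at ZT06 and 17.0 and 16.0 CPM at ZT18 (-0.72 to 0.00), with the interval of the log2 difference in brackets.

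The receptors of the second loop repress or activate Arntl. Nr1d1, which encodes REV-ERBα, was at 17.98 and 20.3 CPM at ZT06 and 17.0 and 16.0 CPM at ZT18 (-0.72 to 0.30), and Nr1d2 at 150.3 and 115 CPM at ZT06 and 96.5 and 107 CPM at ZT18 (-0.84 to 0.07). Rora was at 141 and 108 CPM at ZT06 and 138 and 143 CPM at ZT18 (-0.19 to 0.54). Nr1d1 and Nr1d2 were lower in both ZT18 libraries, and the difference of Rora was -0.00020 on the log2 scale without ZT06 replicate 2. The output factors of the PAR bZIP family activate genes through D-boxes. Dbp was at 112 and 124 CPM at ZT06 and 83.8 and 84.0 CPM at ZT18 (log2 difference -0.49 ± 0.13, adjusted p = 0.107), Tef at 244 and 238 CPM at ZT06 and 196 and 215 CPM at ZT18 (log2 difference -0.23 ± 0.11, adjusted p = 0.302), and Hlf at 37.5 and 50.2 CPM at ZT06 and 42.7 and 45.8 CPM at ZT18 (-0.29 to 0.31). Nfil3, which represses the same sites, was at 24.1 and 34.2 CPM at ZT06 and 20.1 and 15.5 CPM at ZT18 (log2 difference -0.71 ± 0.23, adjusted p = 0.158). Bhlhe40 and Bhlhe41, the repressors DEC1 and DEC2, were at 104 and 88.0 CPM at ZT06 and 129.9 and 161 CPM at ZT18 and at 5.34 and 7.37 CPM at ZT06 and 8.19 and 8.56 CPM at ZT18. Gm129, the CLOCK:BMAL1 repressor now named Ciart, was at 19.4 and 25.3 CPM at ZT06 and 31.0 and 37.4 CPM at ZT18 (log2 difference 0.61 ± 0.30, adjusted p = 0.324). None of these passed, and the intervals show that differences of up to 1.28 on the log2 scale were not resolved at this number of libraries.

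Of the inflammatory lists, that of the acute phase held 1 gene that rose. Steap4, a metalloreductase, was the called member of 24 acute phase genes, at 91.0 and 101 CPM at ZT06 and 178 and 146 CPM at ZT18 (log2 difference 0.75 ± 0.13, adjusted p = 0.0466), and 6 members, all higher, had an unadjusted p under 0.05. The share of all genes that were higher at that p was 8.67%, and the median log2 difference of the list was 0.21. Lrg1, a secreted glycoprotein chosen after its values were seen, was called at 110.2 and 115 CPM at ZT06 and 229 and 233 CPM at ZT18 (log2 difference 1.04 ± 0.19, adjusted p = 0.0478), while Saa4, a serum amyloid picked in the same way, was at 98.3 and 84.3 CPM at ZT06 and 182 and 196 CPM at ZT18 (log2 difference 1.05 ± 0.25, adjusted p = 0.0742) and did not pass. Both Steap4 and Lrg1 lost their calls in each leave-one-out fit, with an adjusted p of up to 0.312 for Steap4. Of 27 interferon-stimulated genes, 0 were called by edgeR and 5 by DESeq2, which called 692 of all 17142 genes. At an unadjusted p under 0.05, 9 were higher and 0 lower, against 8.67% and 8.93% of all genes. The list's median log2 difference was 0.40. Among the most abundant was the GTPase Irgm1, at 42.9 and 33.9 CPM at ZT06 and 61.0 and 64.9 CPM at ZT18 (log2 difference 0.71 ± 0.23, adjusted p = 0.151). Beside these lists, the Kupffer cell markers summed to 433 and 497 CPM at ZT06 and 541 and 434 CPM at ZT18, and the lymphocyte markers to 22.6 and 22.9 CPM at ZT06 and 16.4 and 23.8 CPM at ZT18, and their part in these differences was not tested.

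Cdh1, which encodes E-cadherin, is periportal in the liver and was named after its values were seen, was called at 51.2 and 45.0 CPM at ZT06 and 107 and 88.8 CPM at ZT18 (log2 difference 1.02 ± 0.19, adjusted p = 0.0478). It was the 1 called member of 10 periportal genes, against 0.327% of all genes called higher. At an unadjusted p under 0.05, Cdh1 was the 1 higher member and 3 were lower, against 8.67% and 8.93% of all genes. The median log2 difference of the periportal list was 0.03. Of 12 pericentral genes, 0 were called by edgeR or DESeq2. At an unadjusted p under 0.05, 2 of them were lower, against 8.93% of all genes. Cdh1 had an adjusted p of up to 0.312 with a library left out.

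Of 21 immediate-early and stress kinase genes, 0 were called by edgeR or DESeq2. At an unadjusted p under 0.05, 3 were higher and 1 lower, against 8.67% and 8.93% of all genes. The 2 most abundant of the list were Jund and Dusp6, a MAP kinase phosphatase. Jund was at 49.2 and 51.6 CPM at ZT06 and 76.3 and 61.4 CPM at ZT18 (log2 difference 0.45 ± 0.13, adjusted p = 0.114). Dusp6 was at 55.96 and 45.3 CPM at ZT06 and 75.2 and 51.7 CPM at ZT18. Of 13 glucocorticoid-responsive genes, 0 were called by edgeR or DESeq2. At the same unadjusted threshold 2 were higher and 2 lower, against 8.67% and 8.93% of all genes. Nr3c1, the glucocorticoid receptor, was at 146 and 148 CPM at ZT06 and 129 and 141 CPM at ZT18 (95% interval of the log2 difference -0.38 to 0.13). Tsc22d3, the glucocorticoid target GILZ, was at 87.0 and 80.3 CPM at ZT06 and 147 and 241 CPM at ZT18 (log2 difference 1.21 ± 0.40, adjusted p = 0.164), chosen after its values were seen. The lowest difference of the list went the other way, at -3.14 in Mt2 (adjusted p = 0.164 by edgeR). That of Mt2 was -1.02 without ZT06 replicate 2. The list's median log2 difference was 0.26. Of 22 lipid droplet and apolipoprotein genes, 0 were called by edgeR and 3 by DESeq2. At an unadjusted p under 0.05, 2 were higher and 2 lower, against 8.67% and 8.93% of all genes. Apob and Apoe, the 2 most abundant, were at 14416 and 14222 CPM at ZT06 and 13169.7 and 14714 CPM at ZT18 and at 12092 and 14861 CPM at ZT06 and 12355 and 11920.3 CPM at ZT18, and both overlapped. Apoa5, an apolipoprotein of triglyceride clearance, and Mgll, the monoglyceride lipase, were chosen after their values were seen: Apoa5 was at 1374 and 1679 CPM at ZT06 and 875 and 910.3 CPM at ZT18 (log2 difference -0.77 ± 0.19, adjusted p = 0.0866), and Mgll at 115 and 137 CPM at ZT06 and 191 and 209 CPM at ZT18 (log2 difference 0.67 ± 0.15, adjusted p = 0.0688). Of 19 cell cycle and replication genes, 0 were called by edgeR or DESeq2. At an unadjusted p under 0.05, 2 were higher, against 8.67% of all genes. Ccnd1, cyclin D1, was at 19.5 and 17.0 CPM at ZT06 and 28.0 and 28.9 CPM at ZT18 (log2 difference 0.64 ± 0.22, adjusted p = 0.167). Pcna was at 22.0 and 19.1 CPM at ZT06 and 17.1 and 17.7 CPM at ZT18. Of 36 respiratory chain and ATP synthase genes, 0 were called by either tool and 0 had an unadjusted p under 0.05, with log2 differences between -0.22 and 0.24. Atp5b was at 1367 and 1188 CPM at ZT06 and 1265 and 1236 CPM at ZT18, and Atp5a1 at 1106 and 918 CPM at ZT06 and 912 and 927 CPM at ZT18, both subunits of ATP synthase.

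The remaining large falls were spread over functions. Cbx7, a chromodomain protein of Polycomb complexes, was at 18.7 and 29.2 CPM at ZT06 and 9.06 and 7.17 CPM at ZT18 (log2 difference -1.56 ± 0.28, adjusted p = 0.0466). Rnf125, a ubiquitin ligase, was at 165 and 194 CPM at ZT06 and 68.8 and 67.5 CPM at ZT18 (log2 difference -1.40 ± 0.25, adjusted p = 0.0466). Casp6, a caspase, was at 9.34 and 10.5 CPM at ZT06 and 4.02 and 4.81 CPM at ZT18 (log2 difference -1.17 ± 0.18, adjusted p = 0.0300). In each the groups were well apart, and in Cbx7 ZT06 replicate 2 was the highest. Calcoco1, a protein with a role as an autophagy receptor, was at 25.4 and 29.8 CPM at ZT06 and 12.3 and 12.8 CPM at ZT18 (log2 difference -1.14 ± 0.12, adjusted p = 0.00770). Haus4, a subunit of the augmin complex of the spindle, was at 10.7 and 13.4 CPM at ZT06 and 5.07 and 5.92 CPM at ZT18 (log2 difference -1.14 ± 0.18, adjusted p = 0.0300). Nudt16, a Nudix hydrolase, was at 9.24 and 10.01 CPM at ZT06 and 4.20 and 4.78 CPM at ZT18 (log2 difference -1.10 ± 0.18, adjusted p = 0.0329). Herc3, a HECT-domain ubiquitin ligase, was at 9.66 and 10.3 CPM at ZT06 and 4.81 and 5.34 CPM at ZT18 (log2 difference -0.97 ± 0.15, adjusted p = 0.0300). Cbx7, Calcoco1 and Haus4 were still called without ZT06 replicate 1. None of these 7 was called without any other compared library, and the adjusted p reached 0.296 for Rnf125 and for Nudt16.

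**Figure D5:**
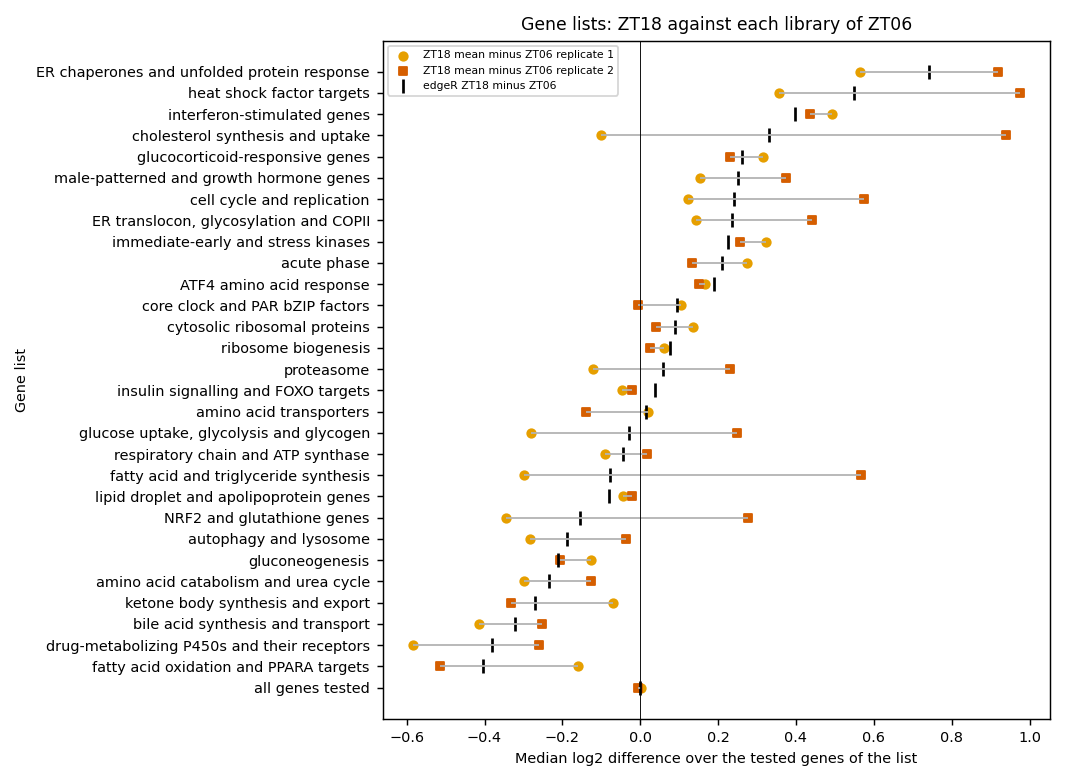
Median log2 difference of the ZT18 mean from ZT06 replicate 1 (orange circles) and from replicate 2 (red squares) over the tested genes of each of the 29 pathway lists and of all 17142 genes, joined by a grey line. The ER chaperone list lies at 0.57 and 0.92 and the heat shock list at 0.36 and 0.98, both above 0 against either library, as are 12 of the 29 lists in all; 9 lie below 0 against both, and 8, the 2 lipid synthesis lists among them, change sign between the libraries.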

How the data were processed

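Total RNA of mouse liver was depleted of rRNA and sequenced as stranded paired libraries, per the labels' protocols. The table the authors deposited gives each gene's reads on exons as raw counts, with no normalization. The submitters' processing notes list STAR 2.4.0i and mm10. How reads were counted, with which strand setting and gene models, is not given in the sources used here, and overlapping, antisense and near-identical genes are uncertain. No row lacked a gene name. Of 22618 gene identifiers, 22054 matched GENCODE M21 (GRCm38), which gave positions. RefSeq promoter windows (GRCm38.p6) matched 4 of the 5 genes asked for by symbol.

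Each library's time and replicate number came from its label. In R 4.3.3, edgeR 4.0.16 fitted all 12 libraries as 6 groups, with TMM factors, filterByExpr (at least 10 counts in enough libraries and 15 in total) and the quasi-likelihood F test on 6 residual degrees of freedom. ZT18 minus ZT06 was tested and adjusted over 17142 genes. The SE is the log2 difference divided by the root of F, and the interval is at 95%. The test was tried on simulated counts with known changes. Alternatives were DESeq2 1.42.0, limma-voom (limma 3.58.1), RLE factors, total counts only, no filter, a mean of at least 5 CPM, only the 4 libraries, no ZT02 libraries, a replicate block and each compared library left out. CPM uses TMM-scaled totals, and log2 ratios between libraries a prior count of 2.

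The 41 gene lists (29 pathway, 12 cell type) had 821 distinct entries, 815 in the table and 787 tested, 23 of them called. The comparison and the lists were chosen with earlier results of these data known. Genes were named as follows: the 15 largest called rises and falls of at least 5 CPM without overlap; every tested core clock gene; from each list, up to 4 called genes by smallest p, or else its 2 most abundant genes; the lipid synthesis genes; and the 5 widest ratios in each direction within each pair. Some genes that this rule selects are not reported here. Names of clones or models (9 of the called genes) were passed over. Where the text names a gene that this rule did not select, it states that the choice followed the values.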

Additional observations from a re-analysis of the deposited data

How the results depend on the processing

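All 95 calls kept their direction in every alternative that tested them, and 10 were not tested at a mean of at least 5 CPM. DESeq2 called 692 genes (337 higher, 355 lower, 87 of them list members), limma-voom 75 and RLE factors 95. Total counts only gave 162 (127 higher, 78.4% against 58.9%), with a shift of 0.04 in the median of all genes. No filter gave 127, 60 of them lower, and a mean of at least 5 CPM gave 191 (116 higher, 75 lower). A fit of only the 4 compared libraries gave 187 (107 higher, 80 lower, 39 list members), and one without the ZT02 libraries 118. Leaving out 1 of the 4 compared libraries gave 0 to 28 calls, 0 to 16 higher, 0 to 12 lower and 0 to 11 list members, with 0 shared calls without ZT06 replicate 2 or ZT18 replicate 2. With fewer samples, the lone library of a time is assumed to vary like the other groups. 

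Replicate numbers did not pair the libraries throughout. Deviations of same-numbered libraries correlated above 0.1 in 5 of 15 pairs of times, with a range from -0.22 to 0.50. The 0.50 was between ZT02 and ZT06. ZT06 was also at 0.16 with ZT10, 0.19 with ZT22, -0.16 with ZT14 and -0.21 with ZT18. With the replicate block, 165 genes were called (94 higher, 71 lower), and with the block in the 4 libraries alone 276 (165 higher, 111 lower, 59 list members). 

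Directions turned in genes that were not called, and the cause was not tested. Hlf was at -0.0059 with no filter, -0.0022 without the ZT02 libraries, and -0.18 to 0.24 with a library left out. Me1 ran from -2.61 to 0.41, Rora from -0.00020 to 0.38 and Fasn from -0.013 to 2.78, and Pck1 from -0.38 to 0.29 with a library left out. Pck1 was at 0.032 with total counts only and 0.014 at a mean of at least 5 CPM. Rpl4 was at -0.012 with no filter, -0.0081 without the ZT02 libraries and -0.011 to 0.030 with a library left out. At this number of libraries small differences may have been missed, and the smallest difference that could be detected was not measured.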

Other observations

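The widest ratios within a time point included genes outside lipid synthesis. At ZT06 the 5 genes of at least 5 CPM that were highest in replicate 1 relative to replicate 2 were Mup17, Chrna4, Mup15, Thrsp and Me1, and the 5 lowest were Mt2, Socs2, Mt1, Lars2 and Scara5. The major urinary proteins Mup17 and Mup15 were at 42.6 and 1.52 CPM at ZT06 and 55.99 and 154 CPM at ZT18 and at 40.2 and 2.19 CPM at ZT06 and 70.3 and 88.4 CPM at ZT18, in a family whose reads may be shared. Chrna4, a nicotinic receptor subunit, was at 21.6 and 0.871 CPM at ZT06 and 12.7 and 5.87 CPM at ZT18. Mt1 and Mt2, the metallothioneins that bind zinc, were at 10.2 and 63.1 CPM at ZT06 and 5.46 and 5.14 CPM at ZT18 and at 2.15 and 16.6 CPM at ZT06 and 1.18 and 0.918 CPM at ZT18, so that ZT06 replicate 2 stood alone above the other 3 libraries. Socs2, an inhibitor of growth hormone signalling, had the same pattern, at 4.24 and 28.1 CPM at ZT06 and 4.99 and 2.14 CPM at ZT18. Scara5, a ferritin receptor, was at 1.62 and 8.21 CPM at ZT06 and 8.25 and 11.5 CPM at ZT18, where ZT06 replicate 1 stood alone below the others. Lars2, a mitochondrial leucyl-tRNA synthetase, was at 19.3 and 114 CPM at ZT06 and 7.93 and 41.3 CPM at ZT18, with replicate 2 higher at both times.

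At ZT18 the widest ratios were in Cib3, Igfbp1, Cyp2c69, Cyp2c40 and Socs2, higher in replicate 1, and in Lrtm1, Lars2, Atg4a, Mfsd2a and Mup1, higher in replicate 2. Igfbp1, an insulin-repressed binding protein, was at 46.9 and 33.5 CPM at ZT06 and 20.6 and 5.84 CPM at ZT18. Mfsd2a, a carrier of lysophospholipids induced by fasting, was at 7.89 and 3.35 CPM at ZT06 and 3.55 and 13.0 CPM at ZT18. Atg4a, a protease that processes ATG8 proteins, was at 13.1 and 2.16 CPM at ZT06 and 2.89 and 11.4 CPM at ZT18, with the ZT06 libraries above and below both of ZT18. These values are given as a description, and no explanation for them was tested.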
